A study of Homo sapiens with 8 samples.

Results

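The genes of cholesterol and fatty acid synthesis were followed in T47D, a human breast carcinoma cell line that expresses the estrogen receptor. The set holds 38 genes chosen by name: 6 that control the pathway or carry sterols (SREBF1, SREBF2, SCAP, INSIG1, INSIG2 and STARD4), 18 of the sterol branch and 14 of the fatty acid branch. On the Affymetrix arrays used, 36 probe sets carried the name of a single member, out of 21214 probe sets with a gene name, and they measured 35 of the 38 genes. A further 3 probe sets named a member together with a pseudogene: a pair named FDPS and FDPSP2, and 1 named HSD17B7 and HSD17B7P2, which is the only measurement of HSD17B7. The levels of FDFT1 and ACSL3 were not analysed here.

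A lentivirus had brought in a conditional short hairpin RNA (shRNA) against EglN2 in one line and the control hairpin Scr in the other. EglN2 is one of the oxygen-dependent prolyl hydroxylases best known for marking HIF alpha proteins. The 4 groups, each of 2 arrays, were the EglN2 shRNA line at day 2 (48 h of doxycycline), the EglN2 shRNA line at day 0 (0 h), the Scr line at day 2 and the Scr line at day 0. All groups share the T47D parent and a hairpin vector, the labels give doxycycline as 1 ug/ml for both lines, and they state neither the promoter of the hairpins nor whether a line is 1 clone. No label tells whether the replicates are separate cultures, and the p-values therefore reflect a spread among arrays that may be technical.

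Sterol and fatty acid synthesis both start from acetyl-CoA in the cytosol and are driven by the SREBP transcription factors, SREBP2 (from SREBF2) mainly for sterol genes and SREBP1 (from SREBF1) mainly for fatty acid genes. SCAP carries both factors from the endoplasmic reticulum to the Golgi for activation by proteolysis, and the INSIG proteins hold SCAP back when sterols are plentiful. INSIG1 and the SREBP genes are themselves SREBP targets, so the pathway feeds back on its own messages, and breast carcinoma cells are known for high fatty acid synthesis.

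SREBPs bind sterol regulatory elements together with the CCAAT-binding factor NF-Y, and the promoters of 3 members are shown because they hold these letters and their genes recur in the values below. Windows are the 250 bases before the gene start in RefSeq (GRCh38.p14), all on the plus strand, at chr22:41832855-41833104 for SREBF2, chr4:165327419-165327668 for MSMO1 and chr10:100346983-100347232 for SCD. Capitals mark TCACNCCAC (the sterol element as searched) and CCAAT (the NF-Y box, read as ATTGG on the other strand).
SREBF2: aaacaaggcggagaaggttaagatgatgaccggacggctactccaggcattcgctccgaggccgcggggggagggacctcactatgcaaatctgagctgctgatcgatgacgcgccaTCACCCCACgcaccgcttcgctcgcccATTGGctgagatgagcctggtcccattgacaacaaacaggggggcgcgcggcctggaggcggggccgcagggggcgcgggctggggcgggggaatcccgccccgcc
MSMO1: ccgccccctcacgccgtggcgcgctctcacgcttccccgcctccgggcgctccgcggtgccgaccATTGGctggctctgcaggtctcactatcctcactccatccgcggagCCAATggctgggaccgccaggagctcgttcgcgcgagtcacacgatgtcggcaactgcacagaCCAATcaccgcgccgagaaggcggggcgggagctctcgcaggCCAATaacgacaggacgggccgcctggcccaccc
SCD: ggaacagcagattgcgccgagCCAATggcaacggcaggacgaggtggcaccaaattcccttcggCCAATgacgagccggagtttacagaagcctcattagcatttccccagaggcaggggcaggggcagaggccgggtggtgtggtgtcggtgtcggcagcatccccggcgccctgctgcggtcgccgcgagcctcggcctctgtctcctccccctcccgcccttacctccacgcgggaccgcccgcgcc
The SREBF2 window holds 1 sterol element and 1 CCAAT, the MSMO1 window 4 CCAAT and the SCD window 2.

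A RefSeq window was found for 34 of the 38 members, the first listed being used for each gene. CCAAT on either strand was present in 12 of 15 sterol branch windows (80%), in 7 of 13 fatty acid branch windows (53.8%) and in 3 of 6 control windows, against 33% of the windows of all 27305 genes. At least 2 copies stood in 8 sterol branch windows (53.3%) and 4 fatty acid branch windows (30.8%), against 10% of all windows. The sterol element in this strict spelling was in the SREBF2 window alone among the members and in 0.875% of all windows, and the E-box CACGTG was in 4 member windows (11.8%) against 6.49%. Among the 14239 genes with a window and a single-gene probe set, the shares were 34.4% for CCAAT, 11.5% for at least 2 copies and 7.86% for the E-box. These are matches of letters and not sites shown to be bound. In the SREBF2 window the sterol element starts 133 bases and the CCAAT 106 bases before the gene start, so they do not overlap.

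EGLN2, the hairpin's target, was measured by a probe set that also names the read-through transcript RAB4B-EGLN2, at 8.26 and 8.29 (log2) in the EglN2 shRNA line at day 2 and 8.85 and 9.04 at day 0, against 8.81 and 8.9 in the Scr line at day 2 and 8.97 and 9.0 at day 0. The 2 EglN2 shRNA day 2 arrays were lowest, with a change in that line of -0.67 (SE 0.11, limma, adjusted p = 0.134). As a rough check of cell identity, 12 of 12 luminal epithelial markers lay above the median of all named probe sets (7.84), against 2 of 4 basal, 1 of 6 fibroblast, 0 of 5 leukocyte, 0 of 4 endothelial and 0 of 4 adipocyte markers. The medians of the list for adipocytes, another cell type with high lipid synthesis, were 6.37, 6.44, 6.54 and 6.52 in the 4 groups in the order above. Array medians over named probe sets ran from 7.81 to 7.86. The Scr day 0 replicate 1 array had the lowest upper quartile, 9.26, where the other 7 arrays lay between 9.28 and 9.37. In RNA from whole cultures, fewer cells of a type and less RNA per cell cannot be told apart.

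None of the 36 member probe sets passed the test in any of 7 comparisons (limma, adjusted p under 0.05 over 21214 probe sets). The smallest adjusted p of a member was 0.102, that of FADS1 for day 2 minus day 0 over both lines. The share of all named probe sets that passed was 0.00943% for the change in the EglN2 shRNA line, 0% for the change in the Scr line and for the difference of those changes, 0.0754% between the lines at day 2, 0% at day 0, 0.141% for the change over both lines and 0.033% between the lines over both days. What follows therefore gives levels, differences and their intervals, with the count of members at an unadjusted p under 0.05 beside the same share of all named probe sets. At day 0 the sterol branch stood higher in the EglN2 shRNA line than in the Scr line, in 17 of 17 probe sets. Of all named probe sets, 50.1% had a positive difference there. The sterol median difference was 0.195, and 0.11 without Scr day 0 replicate 1. At day 2 the sterol branch was higher in 13 of 17 probe sets, and in 8 without Scr day 2 replicate 1. Genes of a branch were read on the same arrays, so their signs are not independent. In the fatty acid branch the desaturases FADS1 and SCD had every day 2 array above every day 0 array. This held for 2 of 36 members (5.56%) and for 2.98% of all named probe sets. Differences between the branches were described and not tested.

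**Figure D1:**
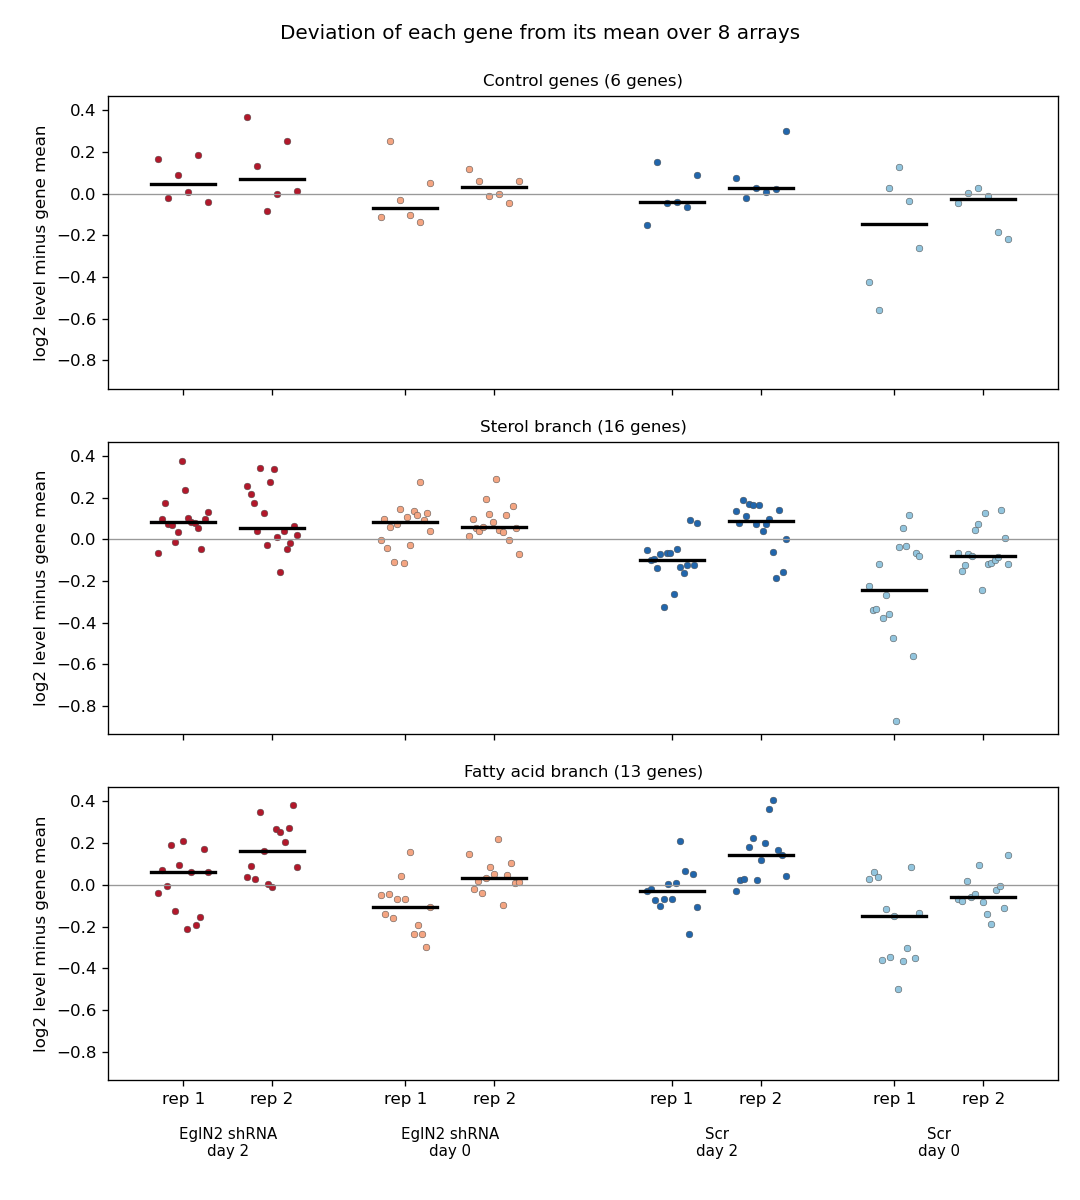
Each point is a gene's log2 level on an array minus its mean over the 8 arrays, for the control genes, the sterol branch and the fatty acid branch; black bars are medians over genes. In the sterol branch the median bars of the 4 EglN2 shRNA arrays lie between 0.05 and 0.08 and those of the Scr arrays between -0.24 and 0.09, with Scr day 0 replicate 1 lowest in all 3 panels.

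By array, the branches lay as follows. For the sterol branch, the median over 16 genes of the deviation from each gene's own mean was 0.08 and 0.05 (log2) in the EglN2 shRNA line at day 2 and 0.08 and 0.06 at day 0. In the Scr line it was -0.10 and 0.09 at day 2 and -0.24 and -0.08 at day 0. The sterol branch was thus near level across the EglN2 shRNA arrays, and only the Scr day 2 replicate 2 array among the Scr arrays reached them. For the fatty acid branch, over 13 genes, the medians were 0.06 and 0.16 in the EglN2 shRNA line at day 2 and -0.11 and 0.03 at day 0, and -0.03 and 0.14 in the Scr line at day 2 and -0.15 and -0.06 at day 0. Here the day 2 arrays were above the day 0 arrays within each line. The sterol median minus the fatty acid median was highest on the EglN2 shRNA day 0 replicate 1 array (0.19) and lowest on the EglN2 shRNA day 2 replicate 2 array (-0.11).

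The replicate number moved with the fatty acid branch. Replicate 2 read above replicate 1 in 11 of 13 fatty acid probe sets in the EglN2 shRNA line at day 2, 13 of 13 at day 0, 12 of 13 in the Scr line at day 2 and 9 of 13 at day 0. Over all named probe sets that share was between 42.9% and 49.6%. In the sterol branch it was 7 and 9 of 17 in the EglN2 shRNA line at day 2 and day 0, and 14 and 11 of 17 in the Scr line. Fatty acid synthase, FASN, which builds palmitate, shows it: 11.43 and 11.86 in the EglN2 shRNA line at day 2 and 11.35 and 11.69 at day 0, and 11.35 and 11.75 in the Scr line at day 2, but 11.67 and 11.58 at day 0. The part of the replicate number in the differences below was not tested beyond the blocked fit given in the closing section.

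Between the lines at day 0, before doxycycline, the sterol branch had a median log2 difference (EglN2 shRNA minus Scr) of 0.195 over 16 genes, against 0.09 in the fatty acid branch, 0.13 in the control genes and 0.01 over all named probe sets. The arrays of the lines did not overlap, with the EglN2 shRNA line higher, for 12 of 17 sterol probe sets (70.6%) and 2 of 13 fatty acid probe sets (15.4%), where 22.2% of all named probe sets did so. An unadjusted p under 0.05 was reached by 5 of 36 members (13.9%), against 10.4% of all named probe sets, and by 1 to 11 members when single arrays were left out. These values lean on array scaling and on 1 array: with quantile normalization 15 of 17 sterol differences were positive with a median of 0.10, and without Scr day 0 replicate 1 they were 16 of 17 and 0.11. Without that array the fatty acid median was -0.03, with 5 of 13 positive.

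At day 2, 13 of 17 sterol probe sets had a positive line difference, against 50.3% of all named probe sets, and the medians were 0.13 for the sterol branch, 0.04 for the fatty acid branch and 0.02 for the control genes. Only 2 of 36 members (5.56%) had an unadjusted p under 0.05, SREBF2 and SQLE, against 5.19% of all. The arrays of the EglN2 shRNA line lay wholly above those of the Scr line for 12 of 36 members, against 15.6% of all. Without Scr day 2 replicate 1 the sterol count was 8 of 17 and the median 0.01. Averaged over both days the line difference was positive for 17 of 17 sterol and 9 of 13 fatty acid probe sets, where 49.2% of all were positive, with medians of 0.16 and 0.03. All 4 EglN2 shRNA arrays lay above all 4 Scr arrays for 3 of 36 members (8.33%), all 3 in the sterol branch, against 2.04% of all named probe sets. An unadjusted p under 0.05 was reached by 6 of 36 (16.7%, against 8.07% of all), 5 of them in the sterol branch, and by 1 to 13 when single arrays were left out.

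**Figure D2:**
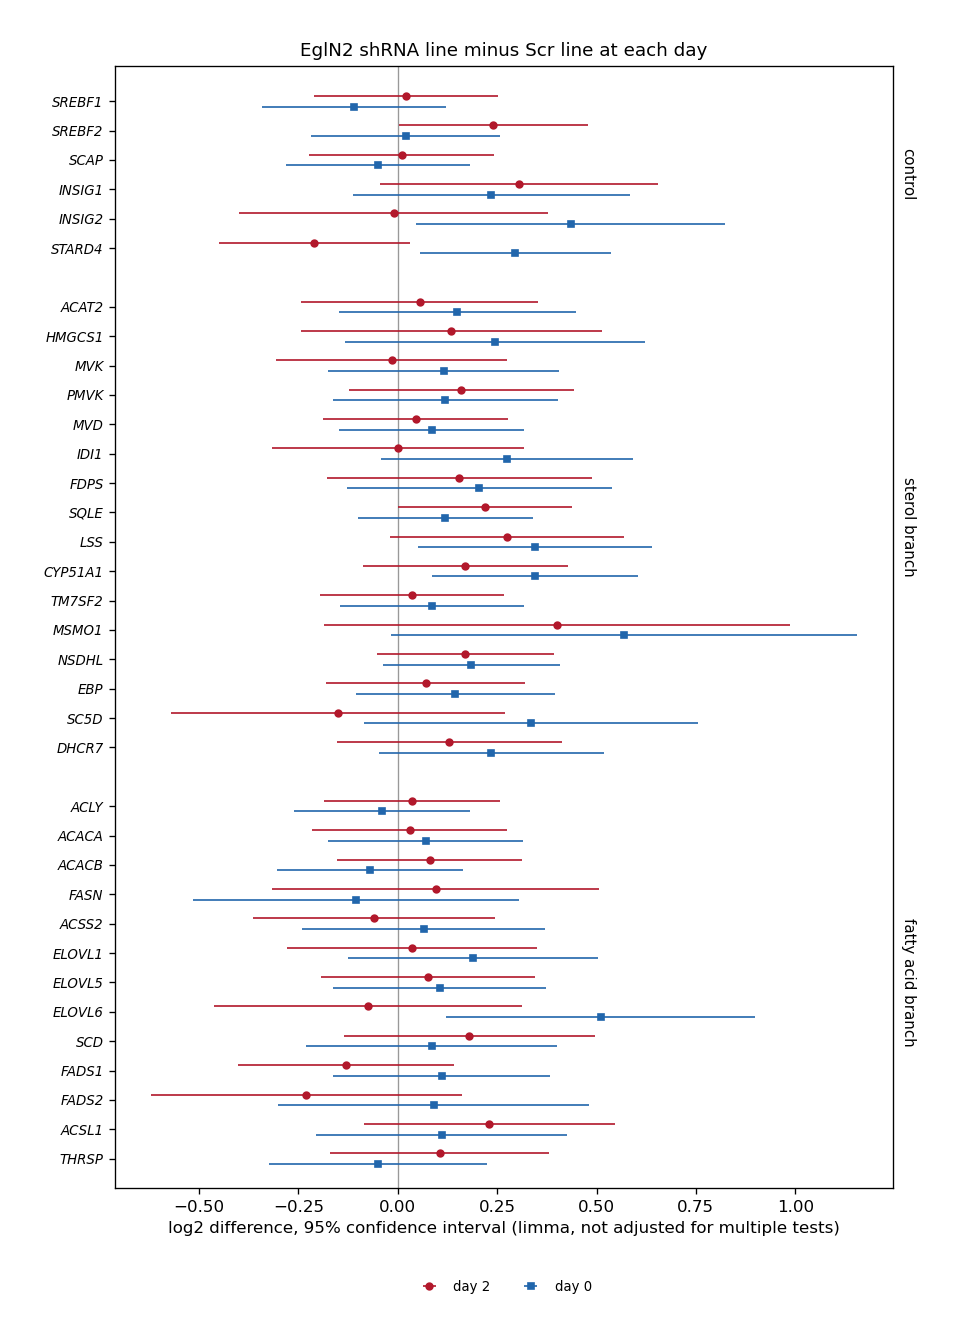
Log2 difference between the EglN2 shRNA and Scr lines with its 95% confidence interval for 35 genes, at day 2 (red circles) and day 0 (blue squares), positive where the EglN2 shRNA line was higher. At day 0 the 16 sterol genes all lie right of 0, from 0.09 to 0.57, and most intervals cross 0.

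The 3 were CYP51A1, NSDHL and SQLE. CYP51A1, the lanosterol demethylase, read 10.97 and 11.09 in the EglN2 shRNA line at day 2 and 10.97 and 10.97 at day 0, against 10.77 and 10.95 in the Scr line at day 2 and 10.53 and 10.72 at day 0. Its line difference over both days was 0.26 (SE 0.08, adjusted p = 0.538). A second CYP51A1 probe set read 9.98, 10.02, 9.87, 10.01, 9.93, 10.11, 9.81 and 9.55 on the same arrays and differed by 0.12 (SE 0.09), with the lines overlapping, so the probe sets of this gene do not give the same picture. NSDHL, which acts in the removal of methyl groups from the sterol ring, read 9.67 and 9.63 in the EglN2 shRNA line at day 2 and 9.71 and 9.71 at day 0, against 9.43 and 9.53 in the Scr line at day 2 and 9.56 and 9.49 at day 0. The difference was small, 0.18 (SE 0.07, adjusted p = 0.612), and the arrays within a group lay close together. SQLE, squalene epoxidase, one of the enzymes that limits sterol flux, read 11.81 and 11.78 in the EglN2 shRNA line at day 2 and 11.84 and 11.77 at day 0, against 11.59 and 11.56 in the Scr line at day 2 and 11.65 and 11.72 at day 0, a difference over both days of 0.17 (SE 0.07, adjusted p = 0.615).

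LSS, lanosterol synthase, which closes the sterol rings, had the smallest unadjusted p of the sterol branch. It read 10.03 and 9.93 in the EglN2 shRNA line at day 2 and 9.54 and 9.74 at day 0, against 9.59 and 9.82 in the Scr line at day 2 and 9.18 and 9.41 at day 0. The groups by day did not overlap within either line, and the lines did not overlap at either day. The change over both lines was 0.38 (SE 0.09, adjusted p = 0.204), or 1.3-fold, and the line difference over both days was 0.31 (SE 0.09, adjusted p = 0.494).

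MSMO1, the methylsterol oxidase whose promoter is printed above, had the largest line difference over both days among the members, 0.49 (SE 0.18, adjusted p = 0.598). It read 9.84 and 9.94 in the EglN2 shRNA line at day 2 and 9.71 and 9.89 at day 0, against 9.34 and 9.64 in the Scr line at day 2 and 8.73 and 9.73 at day 0. A single array, Scr day 0 replicate 1, was far below its partner. The MSMO1 difference was 0.24 without that array and 0.74 without its partner. SC5D, the sterol desaturase of the last steps, had the same low array: 9.81 against 10.51 on the other Scr day 0 array, with 10.46 and 10.51 in that line at day 2 and 10.32, 10.35, 10.46 and 10.53 in the EglN2 shRNA line.

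The early steps of the sterol branch showed small line differences at day 0. They were 0.15 for ACAT2, which joins 2 acetyl-CoA, 0.25 for HMGCS1, which makes HMG-CoA, 0.12 for mevalonate kinase MVK and for PMVK, the kinase after it, 0.09 for the decarboxylase MVD, 0.28 for the isomerase IDI1 and 0.21 for FDPS, with SEs between 0.10 and 0.17. Of these, ACAT2, HMGCS1, MVD and IDI1 had EglN2 shRNA arrays wholly above the Scr arrays at day 0, as did 22.2% of all named probe sets. For MVD the lower EglN2 shRNA array read 9.78 and the higher Scr array 9.77. For IDI1 the Scr day 0 arrays read 11.44 on replicate 1 and 11.87 on replicate 2. Among the late steps the differences were 0.09 for the reductase TM7SF2, 0.15 for the isomerase EBP and 0.24 for DHCR7, which makes cholesterol from its last precursor. None of these 3 overlapped between the lines at day 0. For TM7SF2 the lower EglN2 shRNA array read 11.3 and the higher Scr array 11.29. The probe set named HSD17B7 and HSD17B7P2 differed by 0.43 (SE 0.12, unadjusted p = 0.00625, adjusted p = 0.455), with 8.42 and 8.45 in the EglN2 shRNA line and 8.09 and 7.92 in the Scr line. The pair named FDPS and FDPSP2 differed by 0.17 and 0.15, near the value of the single-gene FDPS probe set.

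**Figure D3:**
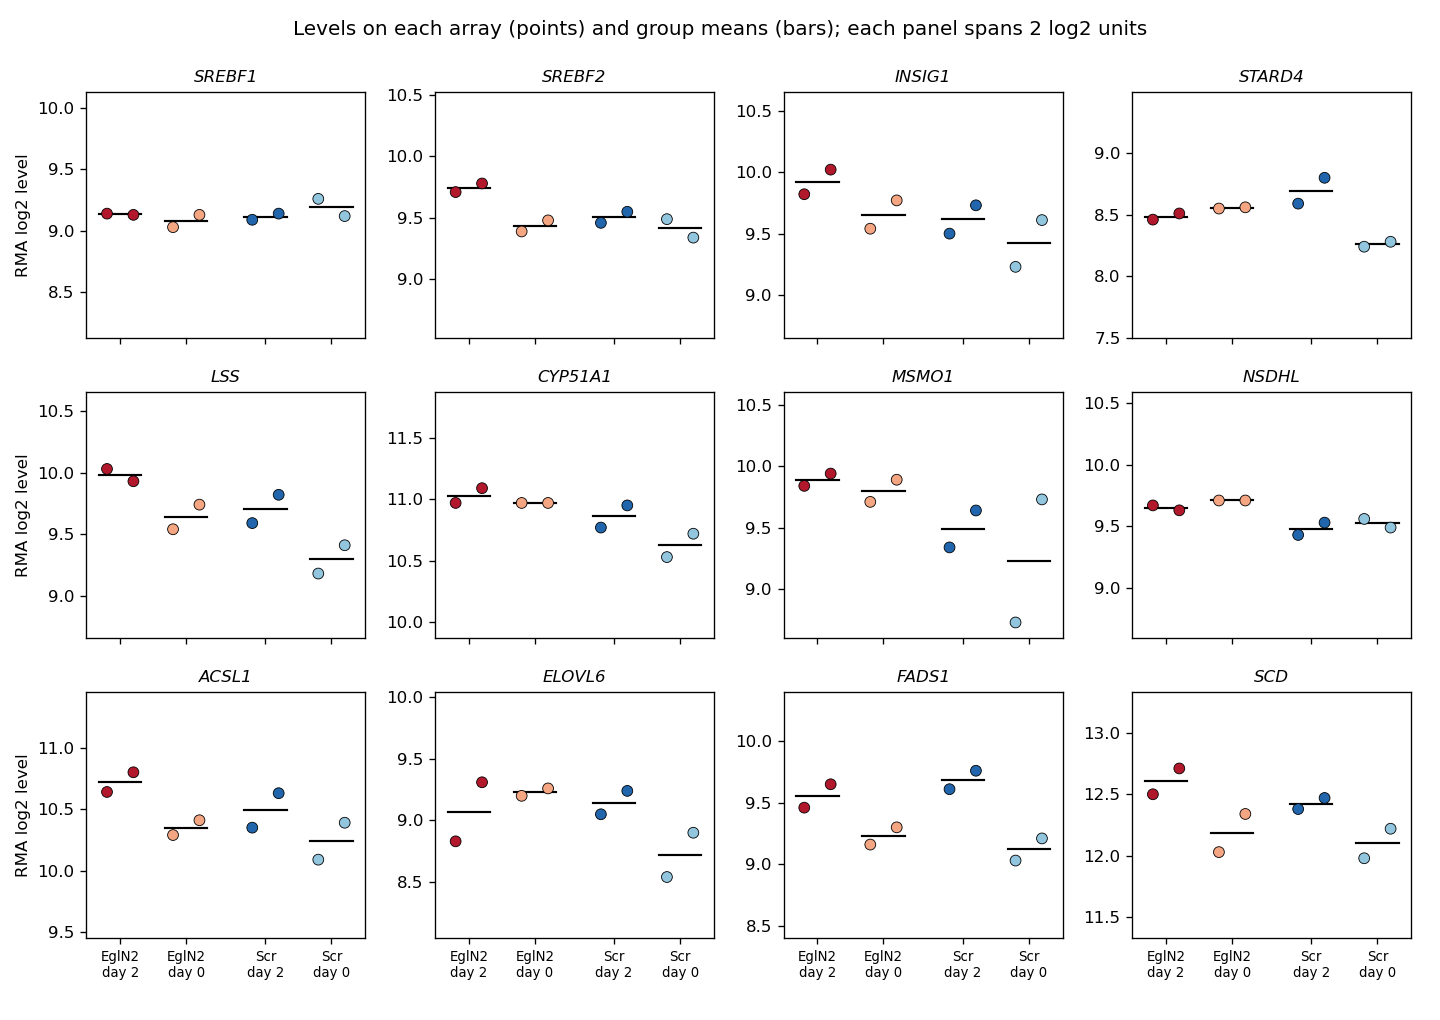
RMA log2 levels of 12 members on each of the 8 arrays (points) with group means (bars); each panel spans the same 2 log2 units, red for the EglN2 shRNA line, blue for the Scr line, darker at day 2. FADS1 and SCD stand higher at day 2 in both lines, LSS is lowest at Scr day 0, and the MSMO1 panel shows the low Scr day 0 replicate 1 array at 8.73.

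After 48 h of doxycycline, which both lines received, the medians of all 3 groups were small and positive. No group was at day 2 without doxycycline, so the drug and the time in culture cannot be told apart. In the EglN2 shRNA line the medians of day 2 minus day 0 were 0.03 for the sterol branch, 0.11 for the fatty acid branch and 0.04 for the control genes, against 0.01 over all named probe sets. In the Scr line they were 0.14, 0.14 and 0.14, against -0.01. An unadjusted p under 0.05 was reached by 5 of 36 members in the EglN2 shRNA line (13.9%, against 5.77% of all named probe sets), 7 in the Scr line (19.4%, against 12.9%) and 9 over both lines (25%, against 10.7%), each of them with a positive difference. Leaving out single arrays moved these counts to between 0 and 5, 2 and 16, and 3 and 11. The difference was positive for 24 of 36 members in the EglN2 shRNA line (50.6% of all named probe sets), 27 in the Scr line (47.5%) and 27 over both lines (47.8%). The arrays of day 2 lay wholly above those of day 0 for 10 of 36 members in the EglN2 shRNA line (15.2% of all) and 13 in the Scr line (23% of all). Without Scr day 0 replicate 1 the sterol median of the Scr line was 0.075 and that over both lines 0.0087, against 0.0763 with it. Without EglN2 shRNA day 0 replicate 1 the fatty acid median of that line was -0.01, with 6 of 13 positive in place of 10, so that median rests on that array.

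**Figure D4:**
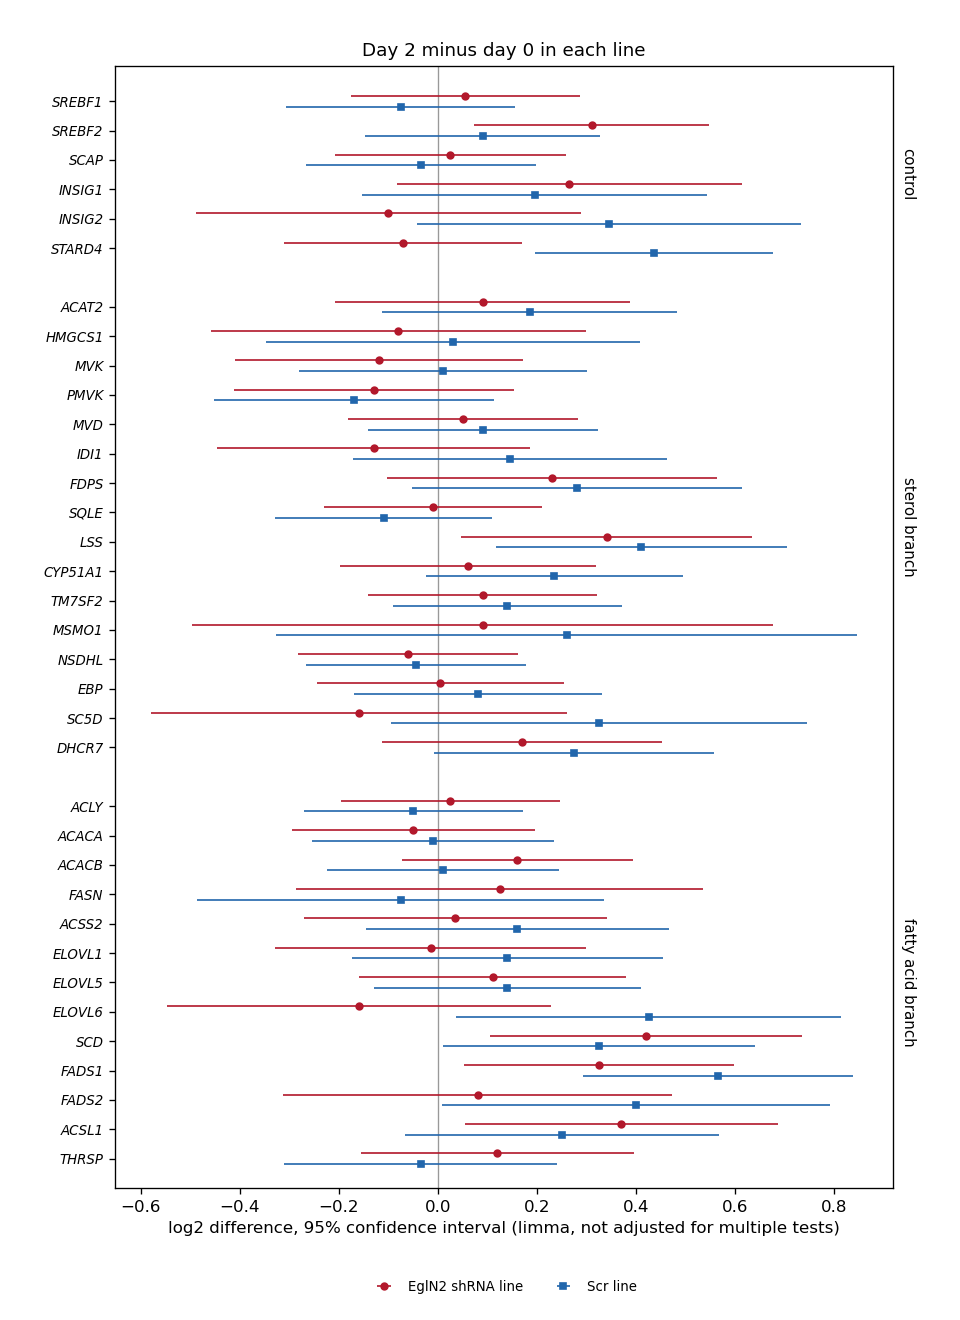
Log2 difference of day 2 minus day 0 with its 95% confidence interval for 35 genes, in the EglN2 shRNA line (red circles) and the Scr line (blue squares). SCD, FADS1 and LSS have intervals right of 0 in both lines. STARD4 and ELOVL6 lie on opposite sides of 0 in the lines, as do other genes such as SC5D, INSIG2 and IDI1.

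FADS1, the delta-5 desaturase of polyunsaturated fatty acid synthesis, had the smallest p of all members. It read 9.46 and 9.65 in the EglN2 shRNA line at day 2 and 9.16 and 9.3 at day 0, and 9.61 and 9.76 in the Scr line at day 2 and 9.03 and 9.21 at day 0. All 4 day 2 arrays lay above all 4 day 0 arrays. The difference was 0.33 (SE 0.12, adjusted p = 0.768) in the EglN2 shRNA line, 0.57 (SE 0.12, adjusted p = 0.228) in the Scr line and 0.45 over both (SE 0.09, 95% confidence interval 0.25 to 0.64, adjusted p = 0.102), or 1.36-fold. With a replicate block, an alternative to the fit used here, its adjusted p over both lines was 0.0309 and it was the only member called. Its neighbour FADS2, the delta-6 desaturase, read 8.58 and 8.98 in the EglN2 shRNA line at day 2 and 8.58 and 8.82 at day 0, and 8.84 and 9.18 in the Scr line at day 2 and 8.47 and 8.75 at day 0. Its days overlapped in the EglN2 shRNA line and not in the Scr line, where the difference was 0.40 (SE 0.17, adjusted p = 0.382). That FADS2 value was 0.57 without Scr day 2 replicate 1 and 0.23 without Scr day 2 replicate 2.

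SCD, the stearoyl-CoA desaturase that makes monounsaturated fatty acids, was the other member whose 4 day 2 arrays lay above all 4 day 0 arrays, which held for 2 of 36 members (5.56%) and for 2.98% of all named probe sets. It read 12.5 and 12.71 in the EglN2 shRNA line at day 2 and 12.03 and 12.34 at day 0, and 12.38 and 12.47 in the Scr line at day 2 and 11.98 and 12.22 at day 0. The difference over both lines was 0.37 (SE 0.10, adjusted p = 0.247), or 1.29-fold. ACSL1, which activates long-chain fatty acids with coenzyme A, read 10.64 and 10.8 in the EglN2 shRNA line at day 2 and 10.29 and 10.41 at day 0, and 10.35 and 10.63 in the Scr line at day 2 and 10.09 and 10.39 at day 0. Its days did not overlap in the EglN2 shRNA line, at 0.37 (SE 0.14, adjusted p = 0.768), and overlapped in the Scr line.

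The entry enzymes of fatty acid synthesis spanned narrow ranges, apart from FASN. ACLY, which makes cytosolic acetyl-CoA from citrate, lay between 12.13 and 12.24 on all 8 arrays, and ACACA, the main acetyl-CoA carboxylase, between 10.27 and 10.49. The 95% confidence interval of day 2 minus day 0 in the EglN2 shRNA line ran from -0.20 to 0.25 for ACLY, from -0.29 to 0.19 for ACACA, and from -0.29 to 0.54 for FASN, so moderate differences of FASN could not be told from 0. ACACB, the mitochondrial carboxylase isoform, was at 6.65 and 6.67 in the EglN2 shRNA line at day 2 and 6.44 and 6.56 at day 0, a difference of 0.16 (SE 0.10). The acetyl-CoA synthetase ACSS2 differed by 0.04 in the EglN2 shRNA line, the elongases ELOVL1 and ELOVL5 by -0.02 and 0.11, and THRSP, a regulator of lipid synthesis known from liver, by 0.12, each with an interval that includes 0.

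Of the control genes, SREBF2, which encodes the main sterol regulator, had the smallest p for the change in the EglN2 shRNA line. It read 9.71 and 9.78 in that line at day 2 and 9.39 and 9.48 at day 0, against 9.46 and 9.55 in the Scr line at day 2 and 9.49 and 9.34 at day 0. The EglN2 shRNA day 2 arrays were above the other 6, and the share of all named probe sets with that pattern was not counted. The difference was 0.31 in the EglN2 shRNA line (SE 0.11, adjusted p = 0.732) and 0.09 in the Scr line (SE 0.11), and the difference between those changes was 0.22 (SE 0.15, adjusted p = 0.735). SREBF1 read 9.14 and 9.13 in the EglN2 shRNA line at day 2 and 9.03 and 9.13 at day 0, against 9.09 and 9.14 in the Scr line at day 2 and 9.26 and 9.12 at day 0, and its groups overlapped by line on both days. SCAP lay between 9.5 and 9.67 on all 8 arrays.

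INSIG1 read 9.82 and 10.02 in the EglN2 shRNA line at day 2 and 9.54 and 9.77 at day 0, against 9.5 and 9.73 in the Scr line at day 2 and 9.23 and 9.61 at day 0. Replicate 2 was above replicate 1 in each group. The line difference over both days was 0.27 (SE 0.11, adjusted p = 0.615), and the INSIG1 value was 0.175 without Scr day 0 replicate 1 and 0.365 without Scr day 0 replicate 2. INSIG2, its homologue, differed between the lines at day 0 by 0.44 (SE 0.17, adjusted p = 0.460), with 9.1 and 8.91 in the EglN2 shRNA line and 8.29 and 8.85 in the Scr line, and the INSIG2 value was 0.16 without Scr day 0 replicate 1 and 0.72 without Scr day 0 replicate 2. At day 2 the INSIG2 arrays of the lines overlapped, at 8.83 and 8.98 in the EglN2 shRNA line and 9.0 and 8.83 in the Scr line.

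The day 2 minus day 0 difference of the EglN2 shRNA line minus that of the Scr line compares the changes of the lines. With 1 line per hairpin, the hairpin cannot be told apart from a line's own response to doxycycline or time in culture. The same quantity is the line difference at day 2 minus that at day 0, so it is not independent of the day 0 line differences given above. The median difference of changes was -0.09 for the sterol branch, -0.03 for the fatty acid branch and 0.07 for the control genes. In the sterol branch 2 of 17 probe sets were positive, where 50.7% of all named probe sets were, but 7 of 17 with quantile normalization, 5 without Scr day 0 replicate 1, 5 without EglN2 shRNA day 2 replicate 2 and 9 without Scr day 2 replicate 2. The changes of the lines did not overlap, that of the EglN2 shRNA line being higher, for 1 of 36 members (2.78%, against 10.1% of all named probe sets), and lower for 3, against 10.4%. An unadjusted p under 0.05 was reached by 2 of 36 members (5.56%), against 7.12% of all. They were STARD4, a sterol transfer protein of the cytosol, and ELOVL6, the elongase that extends palmitate. STARD4 read 8.46 and 8.51 in the EglN2 shRNA line at day 2 and 8.55 and 8.56 at day 0, and 8.59 and 8.8 in the Scr line at day 2 and 8.24 and 8.28 at day 0, a difference of changes of -0.51 (SE 0.15, adjusted p = 0.676). ELOVL6 read 8.83 and 9.31 in the EglN2 shRNA line at day 2 and 9.2 and 9.26 at day 0, and 9.05 and 9.24 in the Scr line at day 2 and 8.54 and 8.9 at day 0, a difference of changes of -0.59 (SE 0.24, adjusted p = 0.694). Leaving out single arrays gave ELOVL6 values from -0.83 without EglN2 shRNA day 2 replicate 2 to -0.35 without replicate 1 of that group. Both genes had their lowest group at Scr day 0.

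The lists of neighbouring lipid genes had 0 members past the threshold in any of the 7 comparisons (limma). For day 2 minus day 0 over both lines, an unadjusted p under 0.05 was found for 2 higher and 1 lower of 11 SREBP processing probe sets, 1 higher of 9 isoprenoid side branch sets and 5 higher of 25 sets of fatty acid supply and other chain enzymes. It was found for 2 higher and 2 lower of 16 sets of sterol storage, transport and LXR genes, 3 higher of 18 glycerolipid synthesis sets and 7 higher of 18 fatty acid oxidation sets. Over all named probe sets 10.7% had such a p in either direction. The isoprenoid count lay near that share and the other counts above it. The lists are small and were not tested as sets. MBTPS1, the protease that makes the first cut of SREBPs, read 12.49 and 12.5 in the EglN2 shRNA line at day 2 and 12.24 and 12.24 at day 0, against 12.27 and 12.28 in the Scr line at day 2 and 12.21 and 12.16 at day 0. Its arrays at day 2 in the EglN2 shRNA line stood above the other 6, as those of SREBF2 did, with a change in that line of 0.26 (SE 0.10, adjusted p = 0.768). MID1IP1, the partner of acetyl-CoA carboxylase related to THRSP, read 9.06 and 8.99 in the EglN2 shRNA line at day 2 and 8.75 and 8.74 at day 0, and 9.07 and 9.08 in the Scr line at day 2 and 8.84 and 8.63 at day 0, a change over both lines of 0.31 (SE 0.08, adjusted p = 0.199). Changes over both lines were 0.24 for SEC23A, a coat protein of export from the endoplasmic reticulum, 0.36 for OXSM of mitochondrial fatty acid synthesis, and 0.18 and 0.14 for the isoprenoid genes PDSS2 and DHDDS.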

How the data were processed

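RNA of 8 T47D samples, 2 for each of 4 groups taken from the sample titles, was measured on Affymetrix arrays. Per the submitters' processing notes, the authors used RMA and Affymetrix Expression Console (versions not given in the sources used here), and the deposited numbers are on a log2 scale, 1 per probe set and array. RMA subtracts background, equalises the arrays and combines a set's probes into 1 value. Differences of dim genes may come out too small, which was not tested here. Values ran from 2.73 to 15.25 and were used as deposited. Scanner files, and so signal over background, were not analysed here, and the number of arrays limits the precision.

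Of 33297 probe sets, 19460 had 1 gene in the platform's table, 1754 had several and 12083 had none. RefSeq (GRCh38.p14) supplied current symbols by gene ID for 19429 of the single names, and 31 were kept. The 4 groups were modelled together, in R 4.3.3 with limma 3.58.1 (lmFit, eBayes; 4 residual and 5.53 prior degrees of freedom, prior SD 0.124). The 7 comparisons were two-sided with Benjamini-Hochberg adjustment over the 21214 named probe sets at 0.05. A gene with several probe sets entered medians through that with the highest mean. All members may be named; values on all 8 arrays are given for SREBF1, SREBF2, INSIG1, and the 4 members of each branch and 2 control members with the smallest p, over the comparisons, and of each neighbouring list the 2 with the smallest p in the EglN2 shRNA change or the change over both lines are named. Other members shown array by array (FASN, FADS2, SQLE, SC5D, INSIG2, ACACB, HSD17B7) were chosen after their values were seen. Members, lists and tests were chosen with earlier results of these data known. The fit was tested on simulated data with independent noise on each array. The simulation held no replicate effect, so it does not speak to the replicate pattern described above. Alternatives were a replicate block, an intensity trend, all probe sets, a minimum mean of 6, median centring, quantile normalization, only the compared arrays, the mean of a gene's probe sets, and leaving out each array. Counts at an unadjusted p and counts of positive differences were added to the alternatives after seeing the data.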

Additional observations from a re-analysis of the deposited data

Results flagged for a closer look

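STARD4, which carries sterols between membranes, drew attention because its day 2 minus day 0 difference had opposite signs in the lines on every pairing of arrays: negative in the EglN2 shRNA line, at -0.07 (SE 0.11), and positive in the Scr line, at 0.43 (SE 0.11). The difference of those changes was tested and did not pass, at -0.51 on the log2 scale (SE 0.15, 95% confidence interval -0.84 to -0.17, limma, unadjusted p = 0.00809, adjusted p = 0.676). Such opposite signs were found in 1 of 36 member probe sets (2.78%) and in 5.69% of all named probe sets. Leaving out single arrays gave values from -0.61 to -0.4, with adjusted p from 0.213 to 0.987.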

How the results depend on the processing

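The count of members past the threshold stayed at 0 in all 7 comparisons under every alternative, except that the replicate block called 1, FADS1, for the change over both lines. The fitted differences of members at an unadjusted p under 0.05 kept their sign under every alternative run. The labels do not say whether replicates with the same number in different groups share anything else. Replicate 2 minus replicate 1 correlated between groups at 0.0981 to 0.271 over probe sets, positive in all 6 pairs of groups. With the replicate block all named probe sets called were 13 for the change in the EglN2 shRNA line, 42 in the Scr line, 32 between the lines at day 2, 150 for the change over both lines and 18 between the lines over both days, in place of 2, 0, 16, 30 and 7. With an intensity trend they were 6 in the Scr line, 2 for the difference of changes, 26 at day 2, 76 for the change over both lines and 14 between the lines over both days. With all 33297 probe sets they were 0 for the EglN2 shRNA line, day 2, both lines and both days, and with only the compared arrays 0 for the EglN2 shRNA line and for day 2. The count between the lines over both days was 11 with a minimum mean of 6, 4 with centred medians and 13 with quantile normalization. The cause of these shifts was not tested. Quantile normalization moved the control median to 0.0742 for the Scr change, 0.142 for the difference of changes and 0.0466 between the lines at day 0, the fatty acid median to 0.0691 for the difference of changes, the sterol median to 0.104 between the lines at day 0, and the count of positive sterol differences of changes to 7.

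Leaving out single arrays gave ranges of 0 to 2 (change in the EglN2 shRNA line), 0 to 15 (lines at day 2), 0 to 20 (change over both lines) and 0 to 6 (lines over both days) probe sets called. The sterol median ran from 0.075 to 0.245 for the Scr change, -0.195 to 0.015 for the difference of changes, 0.0125 to 0.2 between the lines at day 2 and 0.113 to 0.285 at day 0. The fatty acid median ran from -0.005 to 0.18 for the EglN2 shRNA change, 0.045 to 0.235 for the Scr change, -0.09 to 0.065 for the difference of changes and -0.03 to 0.17 between the lines at day 0. The control median ran from 0.035 to 0.2 for the Scr change, -0.03 to 0.125 for the difference of changes, 0.0475 to 0.183 between the lines at day 0 and 0.08 to 0.178 for the change over both lines. The sterol minus fatty acid median ran from -0.173 to 0.02 for the EglN2 shRNA change, -0.155 to -0.03 for the difference of changes and 0.055 to 0.215 between the lines at day 0. Positive differences numbered 6 to 12 of 13 fatty acid probe sets for the EglN2 shRNA change, 5 to 11 between the lines at day 0 and 5 to 13 over both days, and 2 to 9 of 17 sterol probe sets for the difference of changes and 8 to 15 between the lines at day 2.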

Other observations

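Genes of fatty acid oxidation, the opposite process to the one described above, had 7 of 18 probe sets (limma, unadjusted p under 0.05) higher at day 2 over both lines, 0 lower and 0 past the adjusted threshold, where 10.7% of all named probe sets had such a p. In the EglN2 shRNA line alone 1 was higher (5.77% of all in either direction), in the Scr line 6 were higher (12.9%), and for the difference of changes 3 were lower (7.12%). The list was written with earlier results of these data known and was not tested as a set. ACADM, the medium-chain acyl-CoA dehydrogenase, read 9.76 and 9.95 in the EglN2 shRNA line at day 2 and 9.6 and 9.66 at day 0, and 9.82 and 9.79 in the Scr line at day 2 and 9.04 and 9.33 at day 0, a difference over both lines of 0.42 (SE 0.09, adjusted p = 0.123). ACAA2, the mitochondrial thiolase, differed by 0.38 (SE 0.08, adjusted p = 0.126), with 8.66 and 8.71 in the EglN2 shRNA line at day 2 and 8.33 and 8.5 at day 0, and 8.82 and 8.71 in the Scr line at day 2 and 8.19 and 8.36 at day 0. In both genes, named for having the smallest p of the list, every day 2 array was above every day 0 array. The same held for 2.98% of all named probe sets.

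PNPLA3, a lipid droplet enzyme known in liver as an SREBP1 target, read 8.25 and 8.4 in the EglN2 shRNA line at day 2 and 7.89 and 7.88 at day 0, and 7.99 and 8.22 in the Scr line at day 2 and 7.77 and 7.55 at day 0. Its difference over both lines was 0.44 (SE 0.09, adjusted p = 0.108), and DGAT1, which makes triglycerides, differed by 0.24 (SE 0.09, adjusted p = 0.390). OSBPL2, a sterol and lipid binding protein, was low on the EglN2 shRNA day 2 arrays, at 8.92 and 9.12, where that line at day 0 read 9.6 and 9.74 and the Scr line 9.79 and 9.86 at day 2 and 9.73 and 9.88 at day 0. Its day 2 minus day 0 difference there was -0.65 (SE 0.12, adjusted p = 0.181). LPCAT3, an LXR target that remodels phospholipids, differed by day over both lines by 0.33 (SE 0.10, adjusted p = 0.311).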
